A study of Mus musculus with 96 samples.

Results

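The 10 genes described here encode the calcium handling machinery of skeletal muscle: Cacna1s, Ryr1, Trdn, Jph1, Jph2, Casq1, Casq2, Atp2a1, Atp2a2 and Sln. They were chosen by gene symbol for their place in excitation-contraction coupling, with earlier results of these data known. Each symbol matched 1 row of the count table, so that they make up 10 of its 54150 rows. Of the 10, 9 were counted highly enough in differentiated cells to be tested, 3 (Atp2a2, Jph1 and Jph2) were also testable within myoblasts, and Sln was testable nowhere.

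Excitation-contraction coupling turns a change of membrane voltage into calcium release. In a muscle fibre, depolarization of the T-tubule acts on the voltage sensor CaV1.1 (Cacna1s), which opens the ryanodine receptor (Ryr1) in the facing membrane of the sarcoplasmic reticulum; junctophilins (Jph1, Jph2) hold these membranes together, and triadin (Trdn) anchors the luminal calcium buffer calsequestrin (Casq1, Casq2) beside the release channel. SERCA pumps (Atp2a1, Atp2a2) return calcium to the lumen, and sarcolipin (Sln) is a small peptide that restrains them. Atp2a1 and Casq1 are the forms of fast adult fibres, whereas Atp2a2 and Casq2 are best known from heart and slow fibres.

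The cells were C2C12, an immortalized mouse muscle line that proliferates as myoblasts in rich serum and fuses into multinucleated myotubes in low serum. Polyadenylated RNA was sequenced from 96 samples in 35 conditions, of which 26 had 3 samples and 9 had 2. The study asked how inhibitors of mitochondrial respiration and ATP synthesis alter gene expression in proliferating and differentiated muscle cells, and whether enzymes that oxidize NADH change that response. Myoblasts (45 samples, 17 conditions) were lines carrying a lentiviral transgene switched on by 300 ng/ml doxycycline. The transgene encoded luciferase (Luc, the control line), LbNOX (a bacterial oxidase that turns NADH into NAD+), mitoLbNOX (the same enzyme directed to mitochondria) or NDI1 (a yeast NADH dehydrogenase). Cells treated after 24 hr in low serum, called day 1 cells here (9 samples, 3 conditions), carried no transgene. Myotubes (42 samples, 15 conditions) were treated after 4 days in low serum and were either untransduced or had received adenovirus for GFP alone or for GFP with LbNOX. Treatments of 10 hr were 0.5 µM piericidin (a complex I inhibitor), 0.5 µM antimycin (complex III), 1 µM oligomycin (ATP synthase) or 0.5 µM BAM15 (an uncoupler of respiration from ATP synthesis), each set against DMSO. Myoblasts also received 20 µg/ml chloramphenicol, which blocks mitochondrial translation, for 48 hr. Untransduced myotubes also received oligomycin together with piericidin or with BAM15. Some were kept in 5% oxygen from the evening before until the end of the treatment, with DMSO or with oligomycin. Myoblasts differed from day 1 cells and myotubes in transgene, doxycycline and serum as well as in state, so that these cannot be told apart where myoblasts are compared with either. Day 1 cells and untransduced myotubes carried no transgene, received no doxycycline and were both in low serum. No source used here says that samples of a condition came from separate cultures, so the p-values measure only the spread between these samples, which may be technical.

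Estimated reads per sample numbered 6458295 to 15366745 with a median of 10336588. Levels are given as counts per 1000000 reads (CPM) scaled by the TMM method, and a gene passed the test where edgeR's quasi-likelihood F test, adjusted over all genes by the Benjamini-Hochberg method, gave an adjusted p under 0.05. Sequences of the transgenes were counted at 31.2 CPM or more in every sample labelled with them and at 0 in all others. Of 19 myotube markers, 19 were higher in myotubes than in control myoblasts, with summed levels of 414 to 424 CPM in control myoblasts, 19586 to 20130.2 CPM at day 1 and 24456 to 25265 CPM in myotubes, all with DMSO. Of 7 cycling-cell markers, 7 were lower in myotubes. Fibroblast markers (4 of 4) were also higher in myotubes, with sums of 864 to 881 CPM against 4514 to 4690.1 CPM. Of 6 tested cardiac markers, 5 were higher, with the highest levels for Myl4 and Tnnt2, which skeletal myotubes also express. Myh6 (20.6 to 23.0 CPM) and Myl2 (9.40 to 13.4 CPM) were also present in myotubes with DMSO and at 0 in control myoblasts. Tnni3 stood at 1.15 to 2.03 CPM against 0.0914 CPM or less, and Nppb overlapped between these groups. The cardiac genes Nppa and Myl7 were at 0 in myotubes and day 1 cells with DMSO. Endothelial markers summed to at most 3.08 CPM and leukocyte markers to at most 4.23 CPM in the DMSO groups of these states and in myotubes with oligomycin. The part of these markers in the differences between states was not tested, and in bulk RNA more cells of a type cannot be told apart from more RNA per cell.

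On the mouse genome build GRCm38, the genes lie apart from each other on 7 chromosomes. Cacna1s (44 exons) spans chr1:136052750-136119822 on the plus strand, Casq1 (11 exons) chr1:172209894-172219868 on the minus strand, and Jph1 (5 exons) chr1:16964560-17097889 on the minus strand. Ryr1 has the most exons of the 10, 109 over chr7:29003344-29125179 (minus strand), and shares chromosome 7 with Atp2a1 (23 exons) at chr7:126445858-126463108 (minus strand). Atp2a2 (21 exons) is at chr5:122453513-122502225 (minus strand), Jph2 (6 exons) at chr2:163336242-163397993 (minus strand), and Casq2 (12 exons) at chr3:102086415-102146514 (plus strand). Trdn (38 exons) is at chr10:33080554-33476709 and Sln (2 exons) at chr9:53850164-53854560, both on the plus strand. Reads were counted without regard to strand, and 6 of the 10 genes share exon sequence with a gene on the opposite strand. The longest such overlap was 866 bases between Cacna1s and Gm37759, and 19.6% of the 31-base words of Atp2a1 were shared with Rabep2. Rabep2 stood at 22.2 to 29.6 CPM in all 3 states with DMSO while Atp2a1 was near 0 in myoblasts. Of the other opposite-strand genes, Gm37759, Gm26604, Gm17224 and Gm43361 were at 1.33 CPM or less in these states and in myotubes with oligomycin. Atp2a1 and Atp2a2 shared 0.403% of the 31-base words of Atp2a1, and Casq1 and Casq2 shared none.

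The upstream sequences of 4 genes that were near 0 in myoblasts and abundant in myotubes are printed to show the 250 bases in front of each start site (RefSeq, build GRCm38.p6, read on the gene's own strand). Capitals mark every match to CANNTG, the E-box bound by myogenic basic helix-loop-helix factors such as MyoD and myogenin.
Atp2a1: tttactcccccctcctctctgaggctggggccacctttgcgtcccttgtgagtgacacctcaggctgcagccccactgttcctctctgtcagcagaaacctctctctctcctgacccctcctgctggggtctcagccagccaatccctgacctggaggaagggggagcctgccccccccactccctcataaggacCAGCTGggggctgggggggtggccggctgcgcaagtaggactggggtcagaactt
Casq1: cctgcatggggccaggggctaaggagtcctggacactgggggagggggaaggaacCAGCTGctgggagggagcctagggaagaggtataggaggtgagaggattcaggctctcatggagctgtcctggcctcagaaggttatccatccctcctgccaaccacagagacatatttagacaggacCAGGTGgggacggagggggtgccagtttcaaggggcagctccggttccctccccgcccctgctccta
Casq2: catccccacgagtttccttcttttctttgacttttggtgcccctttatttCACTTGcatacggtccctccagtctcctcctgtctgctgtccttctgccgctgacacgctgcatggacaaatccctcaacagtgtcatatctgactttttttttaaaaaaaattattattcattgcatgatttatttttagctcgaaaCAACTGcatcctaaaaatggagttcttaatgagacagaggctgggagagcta
Cacna1s: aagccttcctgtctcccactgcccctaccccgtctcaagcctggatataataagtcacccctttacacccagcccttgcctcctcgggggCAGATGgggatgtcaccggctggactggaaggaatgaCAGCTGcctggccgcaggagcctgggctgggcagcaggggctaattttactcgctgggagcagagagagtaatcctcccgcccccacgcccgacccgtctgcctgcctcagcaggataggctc
These windows are chr7:126463074-126463323, chr1:172219896-172220145, chr3:102086165-102086414 and chr1:136052561-136052810. The Atp2a1 window held 1 match, CAGCTG, that ended 49 bases before the start. Casq1, Casq2 and Cacna1s held 2 matches each, of which 1 was CAGCTG in Casq1 and in Cacna1s and none in Casq2. Of 2 windows for Jph2, each held the same single CAGCTG, and the Ryr1 window at chr7:29125152-29125401 held no match. Ryr1 was also near 0 in myoblasts and abundant in myotubes, so that the printed windows are the ones among such genes that held a match. CANNTG occurred in 66.2% and CAGCTG in 13% of 32851 windows of the same length searched on both strands, and the MEF2 core CTANNNNTAG, which occurred in 3.2%, matched none of the windows of these genes. CAGCTG is one of the sequences that CANNTG covers, and a match is a description of the letters, not a binding site. Atp2a2, Trdn, Jph1 and Sln had no entry in the table of windows.

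**Figure D1:**
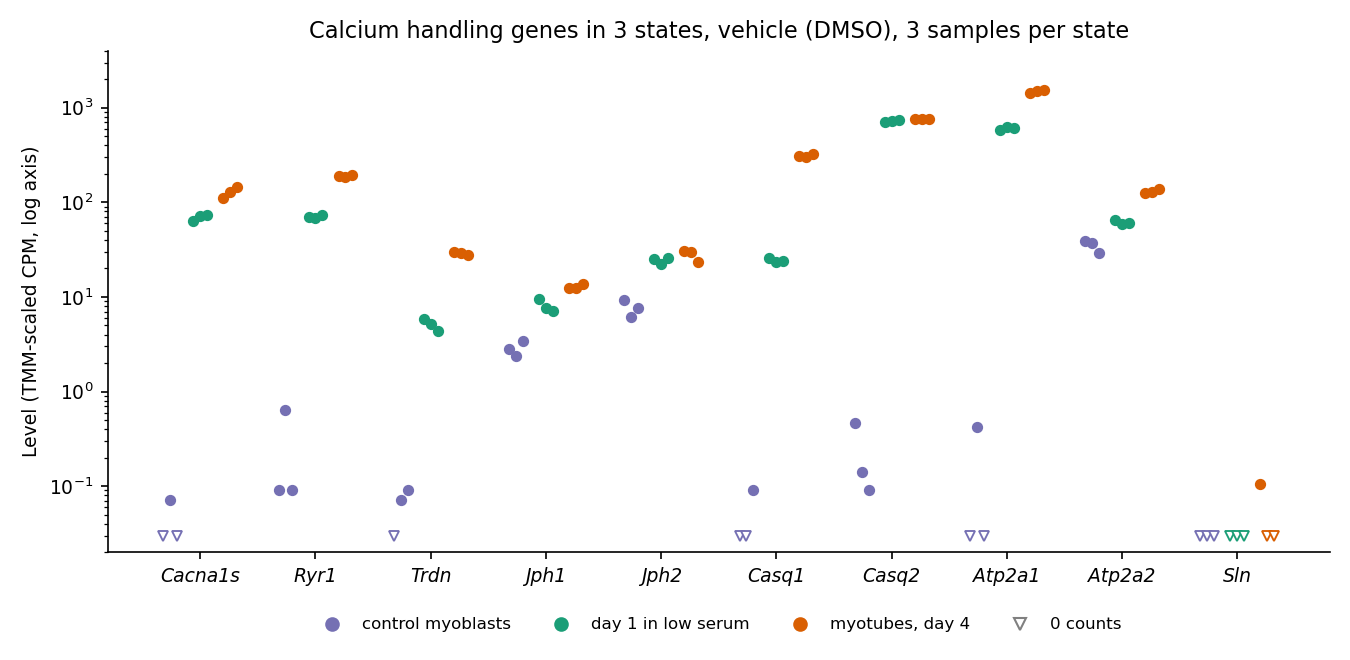
Level of each of the 10 genes in control myoblasts, day 1 cells and untransduced myotubes with DMSO, in CPM with 1 point per sample and 3 samples per group. Cacna1s, Ryr1, Trdn, Casq1, Casq2 and Atp2a1 rise from near 0, Atp2a2, Jph1 and Jph2 start above 1 CPM in myoblasts, and Sln stays near 0.

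The pattern over states split the 10 genes into 3 sets. Cacna1s, Ryr1, Trdn, Casq1, Casq2 and Atp2a1 were near 0 in control myoblasts and abundant in myotubes, Atp2a2, Jph1 and Jph2 were already present in myoblasts and rose a few fold, and Sln was near 0 throughout. The first 6 had enough counts to be tested only in differentiated cells, so that the filter on counts fixed the direction of their change from myoblasts. Of the genes counted in all states, Atp2a2, Jph1 and Jph2 were each higher in myotubes than in control myoblasts, both with DMSO, where 69.4% of 12766 genes passed the test and 35.7% were higher. They were also higher at day 1 than in myoblasts (63.6% of genes passed, 31.3% higher). From day 1 to myotubes 7 of the 9 genes tested rose and none fell (35.6% passed, 19.6% higher), a description of those that the filter left.

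The voltage sensor gene Cacna1s had 0, 1 and 0 counts in the 3 control myoblast samples, 63.1, 72.1 and 72.7 CPM at day 1 and 112, 129 and 144 CPM in myotubes. The 3 states did not overlap. Summed over samples, the myotube level was 4628 (95% interval 830.1 to 182835) times that of myoblasts, a wide interval because it rests on 1 myoblast count. Without that sample, replicate 2, the level was at least 935 times higher by a floor of 3 counts over the other samples. From day 1 to myotubes Cacna1s rose by log2 0.90 ± 0.10 (SE, edgeR adjusted p = 2.98e-08).

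Of the release channel and its anchor, Ryr1 had 1, 9 and 1 counts in control myoblasts, 69.4, 68.6 and 74.2 CPM at day 1 and 188, 184 and 196 CPM in myotubes. Trdn had 0, 1 and 1 counts, then 5.78, 5.14 and 4.39 CPM and 29.7, 29.5 and 27.96 CPM. Both genes were again separate between states. From day 1 to myotubes Ryr1 rose by log2 1.43 ± 0.12 (SE, edgeR adjusted p = 7.09e-11) and Trdn by 2.52 ± 0.20 (SE, edgeR adjusted p = 5.14e-11). Against myoblasts the myotube ratio was 619 (95% interval 346 to 1240.2) for Ryr1 and 522 (95% interval 144 to 4320.3) for Trdn. Of the 11 Ryr1 counts of the control myoblasts 9 fell in replicate 2, and without it the ratio was 2063 (95% interval 571 to 17036), beyond the interval with all samples.

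The junctophilin genes were present in all states. Jph1 stood at 2.85, 2.40 and 3.38 CPM in control myoblasts, 9.60, 7.71 and 7.16 CPM at day 1 and 12.6, 12.3 and 13.7 CPM in myotubes. Jph2 stood at 9.38, 6.06 and 7.68 CPM in myoblasts, 25.4, 22.1 and 25.9 CPM at day 1 and 30.3, 29.8 and 23.3 CPM in myotubes. The groups of Jph1 did not overlap, whereas those of Jph2 overlapped between day 1 and myotubes. Jph1 rose by log2 2.17 ± 0.19 (SE, edgeR adjusted p = 4.11e-11) from myoblasts to myotubes, of which 0.67 ± 0.17 (SE, edgeR adjusted p = 0.00266) came after day 1. Jph2 rose by log2 1.86 ± 0.16 (SE, edgeR adjusted p = 1.7e-11) over the whole course, and its difference between myotubes and day 1 was 0.20 ± 0.14 (SE, edgeR adjusted p = 0.304).

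The calsequestrin genes parted after day 1. Casq2 had 5, 2 and 1 counts in control myoblasts, 710.1, 716 and 737 CPM at day 1 and 769, 766 and 768 CPM in myotubes. Casq1 had 0, 0 and 1 counts, then 26.005, 23.6 and 24.3 CPM and 312, 304 and 325 CPM. Casq2 thus reached most of its myotube level by day 1, and the log2 difference from day 1 to myotubes was 0.10 ± 0.09 (SE, edgeR adjusted p = 0.406). Its 3 myotube samples lay above the 3 day 1 samples with TMM scaling, but with plain library totals the groups overlapped and the log2 ratio of mean levels turned from 0.09 to -0.02. Casq1 rose by log2 3.68 ± 0.09 (SE, edgeR adjusted p = 2.82e-20) over the same interval, the largest late change of the 9 genes tested, or 12.7 (95% interval 11.9 to 13.7) times.

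Of the pump genes, Atp2a1 had 0, 6 and 0 counts in control myoblasts, 587, 632 and 615 CPM at day 1 and 1430.2, 1502 and 1549 CPM in myotubes. Atp2a2 stood at 38.6, 36.7 and 29.3 CPM in myoblasts, 64.9, 58.6 and 60.8 CPM at day 1 and 125, 128 and 137 CPM in myotubes. Neither gene overlapped between states. From day 1 to myotubes Atp2a1 rose by log2 1.30 ± 0.08 (SE, edgeR adjusted p = 6.38e-14) and Atp2a2 by 1.09 ± 0.08 (SE, edgeR adjusted p = 3.15e-12), and Atp2a2 had risen by 0.80 ± 0.08 (SE, edgeR adjusted p = 7.71e-10) from myoblasts to day 1. All 6 Atp2a1 counts of the control myoblasts fell in replicate 2. The pump regulator Sln had no count in any of the 45 myoblast and 9 day 1 samples, which allows up to 0.385 CPM in the shallowest of them, and at most 5 counts in 13 of the 42 myotube samples (24 counts in all).

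Levels of different genes are compared per kb of the longest coding transcript, a length that does not take account of which isoforms the cells used. In myotubes with DMSO the order of mean levels per kb was Atp2a1 (429.6 ± 17.2 CPM per kb, SD, n = 3), Casq2 (315 ± 0.664), Casq1 (169.7 ± 5.70), Atp2a2 (22.9 ± 1.04), Cacna1s (20.5 ± 2.58), Ryr1 (12.4 ± 0.422), Jph2 (6.61 ± 0.925), Trdn (6.43 ± 0.209), Jph1 (2.68 ± 0.156) and Sln (0.0267 ± 0.0463). The neighbours Atp2a2 and Cacna1s, and Jph2 and Trdn, did not differ beyond their spread. At day 1 Casq2 led at 296 ± 5.86 CPM per kb, ahead of Atp2a1 at 176 ± 6.57 and Casq1 at 13.3 ± 0.678, and Trdn was the lowest gene above 0 at 1.13 ± 0.154. In control myoblasts the order was Atp2a2 (6.15 ± 0.864), Jph2 (1.83 ± 0.393) and Jph1 (0.598 ± 0.102), with all others lower. Casq2, Atp2a1 and Casq1 were thus the 3 highest in both differentiated states.

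The plot of paralogue shares gives each pair per length. Atp2a1 made up 0 to 1.84% of the Atp2a1 and Atp2a2 level in control myoblasts, 94.2% ± 0.491 (SD, n = 3) at day 1 and 94.9% ± 0.0847 in myotubes, so that the pump pair was close to its myotube proportion by day 1. The Casq1 share of the calsequestrin pair went from 4.31% ± 0.257 at day 1 to 34.98% ± 0.731 in myotubes, and Casq2 remained the larger in every differentiated sample with DMSO. Jph1 made up 24.9% ± 3.49 of the junctophilin pair in control myoblasts, 22.6% ± 2.78 at day 1 and 29.1% ± 4.27 in myotubes. These SDs overlapped, but the myotube samples (26.6 to 34.0%) all lay above the day 1 samples (19.5 to 24.9%).

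**Figure D2:**
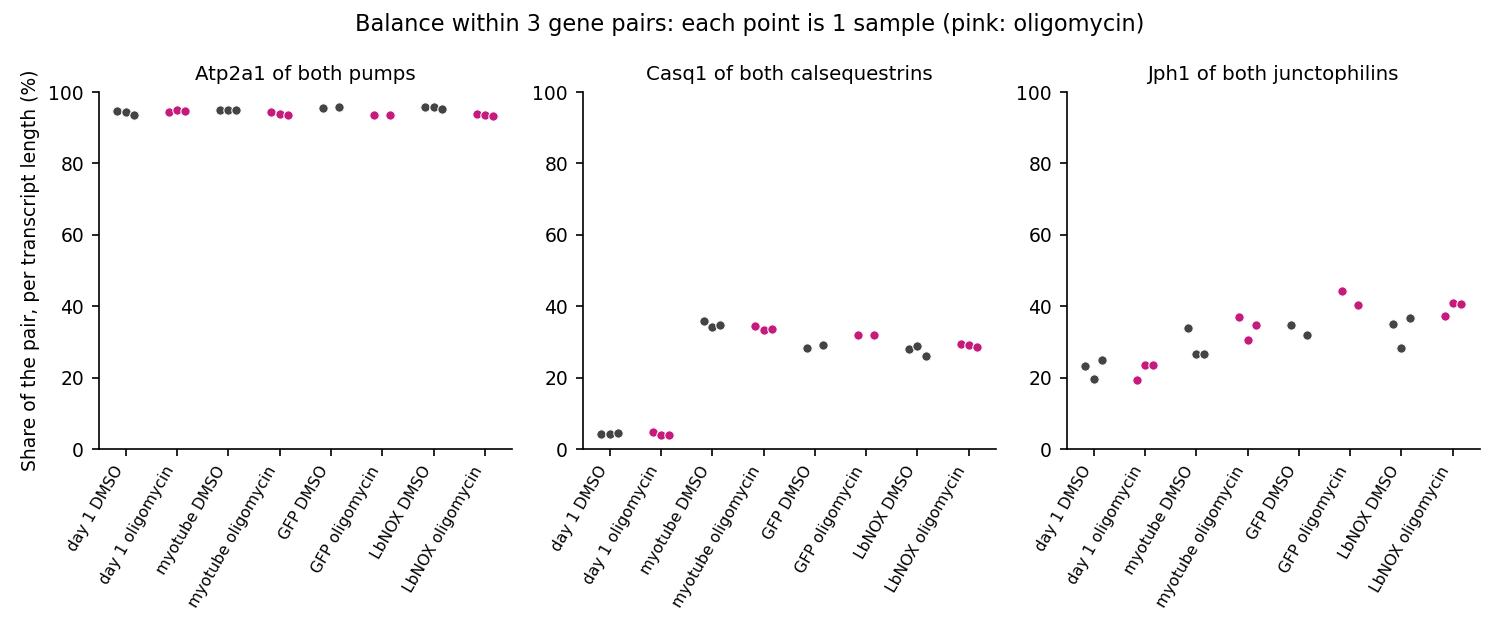
Share of Atp2a1 in the Atp2a1 and Atp2a2 pair, of Casq1 in the Casq1 and Casq2 pair and of Jph1 in the Jph1 and Jph2 pair, in percent of the summed level per kb, with 1 point per sample. The pump pair is near its myotube share at day 1, whereas the Casq1 share is 4.31% ± 0.257 (SD) at day 1 and 34.98% ± 0.731 in myotubes with DMSO.

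Other genes of calcium handling were taken from a list of 55 that holds none of the 10. Between control myoblasts and myotubes, 35 of 50 tested genes of the list rose and 9 fell, with a median log2 change of 1.34, where 69.4% of all genes passed, 35.7% were higher and the median was 0.039. Genes of the list too low in myoblasts to be tested there could only be higher. The partners of the voltage sensor and the genes of triad and T-tubule structure rose in 4 of 4 cases each, and among the largest increases were Cav3, the muscle caveolin (log2 8.95 ± 0.27, 102 against 0.200 CPM), Hrc, a luminal calcium-binding protein (log2 8.80 ± 0.14, 142 against 0.315 CPM), and Srl, sarcalumenin (log2 7.49 ± 0.15, 680 against 3.70 CPM). The release channel family was divided, with 6 of 11 higher and 5 lower, and the IP3 receptor genes Itpr1 (log2 -0.91 ± 0.21, 4.69 against 8.81 CPM) and Itpr2 (log2 -0.83 ± 0.22, 6.66 against 11.996 CPM) were lower in myotubes. From day 1 to myotubes 21 rose and 8 fell (35.6% of all genes passed, 19.6% higher), with Cav3 again among the increases (log2 2.50 ± 0.15, 102 against 18.2 CPM) and Stac3, which couples the voltage sensor to the release channel, among the decreases (log2 -0.49 ± 0.17, 21.1 against 29.98 CPM).

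Oligomycin moved 6 of 9 tested genes in untransduced myotubes, with the channel and pump genes Ryr1, Cacna1s and Atp2a2 and the junctophilin gene Jph1 higher and both calsequestrin genes lower. Of 12491 genes, 33.3% passed in this comparison, 16.9% higher and 16.4% lower. As a description, 6 of 9 is above that share, for genes chosen with earlier results of these data known. Most of the 9 were abundant in myotubes, and the share among genes of like abundance was not tested. All of the changes were modest, between log2 -0.39 and 0.61. The median log2 change of the 9 genes was 0.26, beside -0.0058 over all genes.

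The voltage sensor gene Cacna1s went from 112, 129 and 144 CPM with DMSO to 157, 149 and 159 CPM with oligomycin, log2 0.31 ± 0.08 (SE, edgeR adjusted p = 0.00448). The release channel gene Ryr1 went from 188, 184 and 196 to 225, 224 and 238 CPM, log2 0.31 ± 0.06 (SE, edgeR adjusted p = 0.000436). For both, all 3 oligomycin samples lay above all 3 DMSO samples. Trdn stood at 29.7, 29.5 and 27.96 CPM with DMSO and 25.6, 19.9 and 23.2 CPM with oligomycin, a log2 difference of -0.31 ± 0.12 (SE, edgeR adjusted p = 0.0508) that just missed the threshold although the groups did not overlap. It passed without replicate 1 of the oligomycin group, at -0.38 (adjusted p = 0.0387), and with only the groups compared (adjusted p = 0.0446).

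Jph1 went from 12.6, 12.3 and 13.7 to 19.7, 20.02 and 17.6 CPM, log2 0.61 ± 0.11 (SE, edgeR adjusted p = 7.34e-05), with no overlap between groups. For Jph2 the DMSO samples (30.3, 29.8 and 23.3 CPM) and the oligomycin samples (29.4, 32.97 and 34.8 CPM) overlapped, and the difference was 0.26 ± 0.14 (SE, edgeR adjusted p = 0.157), or 0.39 (adjusted p = 0.0357) with outer wells as a covariate. Jph1 made up 29.1% ± 4.27 of the junctophilin pair with DMSO and 34.1% ± 3.15 with oligomycin.

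Both calsequestrin genes fell. Casq1 went from 312, 304 and 325 to 241, 224 and 234 CPM, log2 -0.39 ± 0.04 (SE, edgeR adjusted p = 1.9e-07). Casq2 went from 769, 766 and 768 to 600.3, 579.6 and 618 CPM, log2 -0.32 ± 0.04 (SE, edgeR adjusted p = 3.38e-07). In each case the 3 oligomycin samples were the lower ones, and the Casq1 share of the pair was 33.9% ± 0.654, against 34.98% ± 0.731 with DMSO.

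Of the pumps, Atp2a2 went from 125, 128 and 137 to 152, 157 and 152 CPM, log2 0.28 ± 0.06 (SE, edgeR adjusted p = 0.000419), again without overlap. Atp2a1 stood at 1430.2, 1502 and 1549 CPM with DMSO and 1564, 1421 and 1436 CPM with oligomycin, a difference of 0.02 ± 0.05 (SE, edgeR adjusted p = 0.816). The groups of Atp2a1 overlapped.

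**Figure D3:**
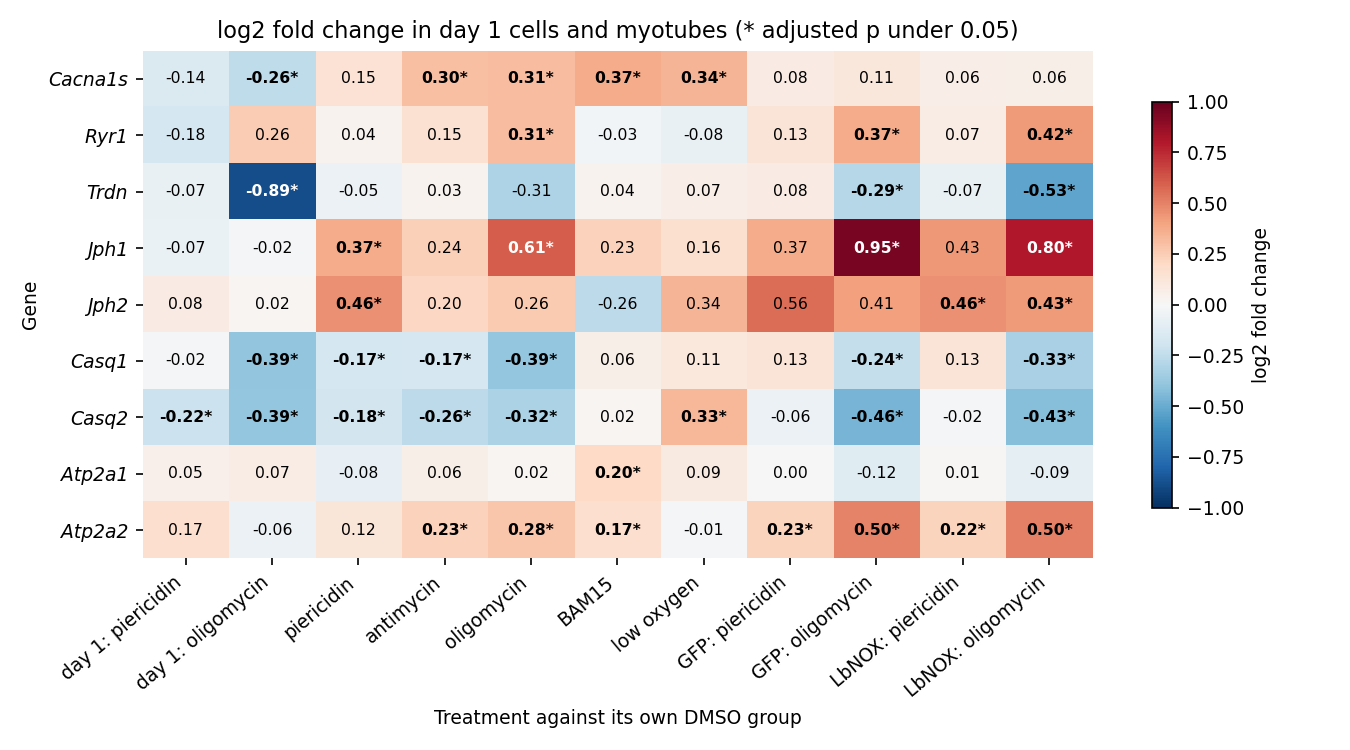
Log2 fold change of each tested gene (rows) for single treatments of day 1 cells and myotubes against DMSO in standard oxygen (columns). Values are as fitted by edgeR, in color from lower to higher, with a mark on changes whose adjusted p is under 0.05. In the columns of oligomycin against DMSO in untransduced myotubes in standard oxygen and in GFP and LbNOX myotubes, Ryr1, Atp2a2 and Jph1 are higher and Casq1 and Casq2 lower.

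On the list of 55 other calcium genes, 6 of 50 rose with oligomycin in untransduced myotubes and 15 fell, with a median of -0.11, beside 16.9% higher, 16.4% lower and a median of -0.0058 over all genes. All 3 luminal binding genes of the list (Srl, Hrc and Calr) fell, as both calsequestrin genes had. The third SERCA gene, Atp2a3, rose from a low level (log2 3.18 ± 0.30, 18.3 against 2.07 CPM), while Mrln, a small peptide that restrains SERCA, fell (log2 -1.33 ± 0.30, 2.71 against 6.91 CPM). Cav3 fell (log2 -0.99 ± 0.06, 49.95 against 102 CPM), and so did Fkbp1b, a ryanodine receptor partner (log2 -1.87 ± 0.34, 1.36 against 5.13 CPM). The myotube markers moved both ways, 5 of 19 higher and 10 lower, and their summed level, 24456 to 25265 CPM with DMSO and 24177 to 25922 CPM with oligomycin, overlapped between groups. Of 6 stress response genes, 6 rose, from a summed 162 to 170 CPM to 1198 to 1265 CPM, and of the leukocyte markers the lysosomal gene Cd68, named after its values were seen, was higher at 2.57 to 3.20 CPM against 0.740 to 1.06 CPM. Their part in the responses of the 9 genes was not tested.

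Piericidin, antimycin, BAM15 and low oxygen were compared with the same DMSO samples as oligomycin, so that none of these comparisons is independent of the others. With piericidin 4 of 9 genes passed (8.99% of all genes). Casq1 (255, 286 and 282 CPM) fell by log2 0.17 ± 0.04 (SE, edgeR adjusted p = 0.0136) and Casq2 (634, 667 and 702 CPM) by 0.18 ± 0.04 (SE, edgeR adjusted p = 0.00237), and no piericidin sample of either reached the DMSO samples. Jph1 (18.1, 17.1 and 14.5 CPM) rose by 0.37 ± 0.11 (SE, edgeR adjusted p = 0.03) and Jph2 (45.05, 37.1 and 31.9 CPM) by 0.46 ± 0.14 (SE, edgeR adjusted p = 0.0378), with all samples above those with DMSO. Leaving out 1 sample ended the Jph1 call for every sample but replicate 3 of either group, the Jph2 call for every sample but DMSO replicate 1 and piericidin replicate 3, and the Casq1 call for DMSO replicate 3 and piericidin replicate 1, with adjusted p up to 0.239. The Jph1 call was also lost without the count filter, by the DESeq2 Wald test and with only the groups compared (adjusted p 0.0983 to 0.421), and the Casq1 call without the filter (0.0584) and with only the groups compared (0.0512). Ryr1 and Atp2a2, which rose with oligomycin, gave 0.04 (adjusted p = 0.815) and 0.12 (adjusted p = 0.224) in edgeR with piericidin.

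With antimycin 4 of 9 passed (12.9% of all genes). Casq2 (652, 635 and 609 CPM) fell by log2 0.26 ± 0.04 (SE, edgeR adjusted p = 2.54e-05) and Casq1 (284, 275 and 266 CPM) by 0.17 ± 0.04 (SE, edgeR adjusted p = 0.0112). Atp2a2 (165, 143 and 144 CPM) rose by 0.23 ± 0.06 (SE, edgeR adjusted p = 0.00724) and Cacna1s (168, 151 and 149.6 CPM) by 0.30 ± 0.08 (SE, edgeR adjusted p = 0.0133). None of these groups overlapped the DMSO samples. Ryr1 (217, 207 and 199 CPM) also lay above all DMSO samples, with a difference of 0.15 ± 0.06 (SE, edgeR adjusted p = 0.121). The Cacna1s call was lost without replicate 1 of the DMSO group (0.21, adjusted p = 0.108) or of the antimycin group (0.25, adjusted p = 0.0854), the Atp2a2 call without the latter (0.16, adjusted p = 0.0862), and the Casq1 call without DMSO replicate 3 (-0.15, adjusted p = 0.0534) or without the count filter (adjusted p = 0.0612).

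With the uncoupler BAM15 3 of 9 genes passed, all of them higher (25.4% of all genes). Cacna1s (165, 169.8 and 143 CPM) rose by log2 0.37 ± 0.08 (SE, edgeR adjusted p = 0.00153), Atp2a1 (1565, 1805 and 1562 CPM) by 0.20 ± 0.05 (SE, edgeR adjusted p = 0.00416) and Atp2a2 (140.4, 152 and 129 CPM) by 0.17 ± 0.06 (SE, edgeR adjusted p = 0.0296). Only the Atp2a1 samples all lay above those with DMSO, and the lowest Cacna1s and Atp2a2 samples fell within the DMSO range. The Atp2a2 call was lost without replicate 1 or 2 of either group (0.12 to 0.18), without the count filter, with outer wells as a covariate and with only the groups compared (adjusted p 0.0738 to 0.275), and the Atp2a1 call without BAM15 replicate 2 (0.13, adjusted p = 0.0543). Casq1 at 305, 328 and 306 CPM and Casq2 at 711, 811 and 717 CPM overlapped the DMSO groups, with differences of 0.06 (adjusted p = 0.376) and 0.02 (adjusted p = 0.768) in edgeR.

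Low oxygen raised Casq2. In 5% oxygen 2 of 9 genes passed (22.1% of all genes), Casq2 (962, 944 and 893 CPM) at log2 0.33 ± 0.04 (SE, edgeR adjusted p = 2.68e-07) and Cacna1s (154, 169 and 149 CPM) at 0.34 ± 0.08 (SE, edgeR adjusted p = 0.00288). Both lay above every DMSO sample, and the 7 cycling-cell markers were all lower in the same comparison. Jph2 (34.6, 33.5 and 33.7 CPM) lay above the DMSO samples too, with a difference of 0.34 ± 0.14 (SE, edgeR adjusted p = 0.0847), and Ryr1 (165, 181 and 174 CPM) lay below them at -0.08 ± 0.06 (SE, edgeR adjusted p = 0.458). Casq1 passed without replicate 3 of low oxygen (0.14, adjusted p = 0.0486).

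**Figure D4:**
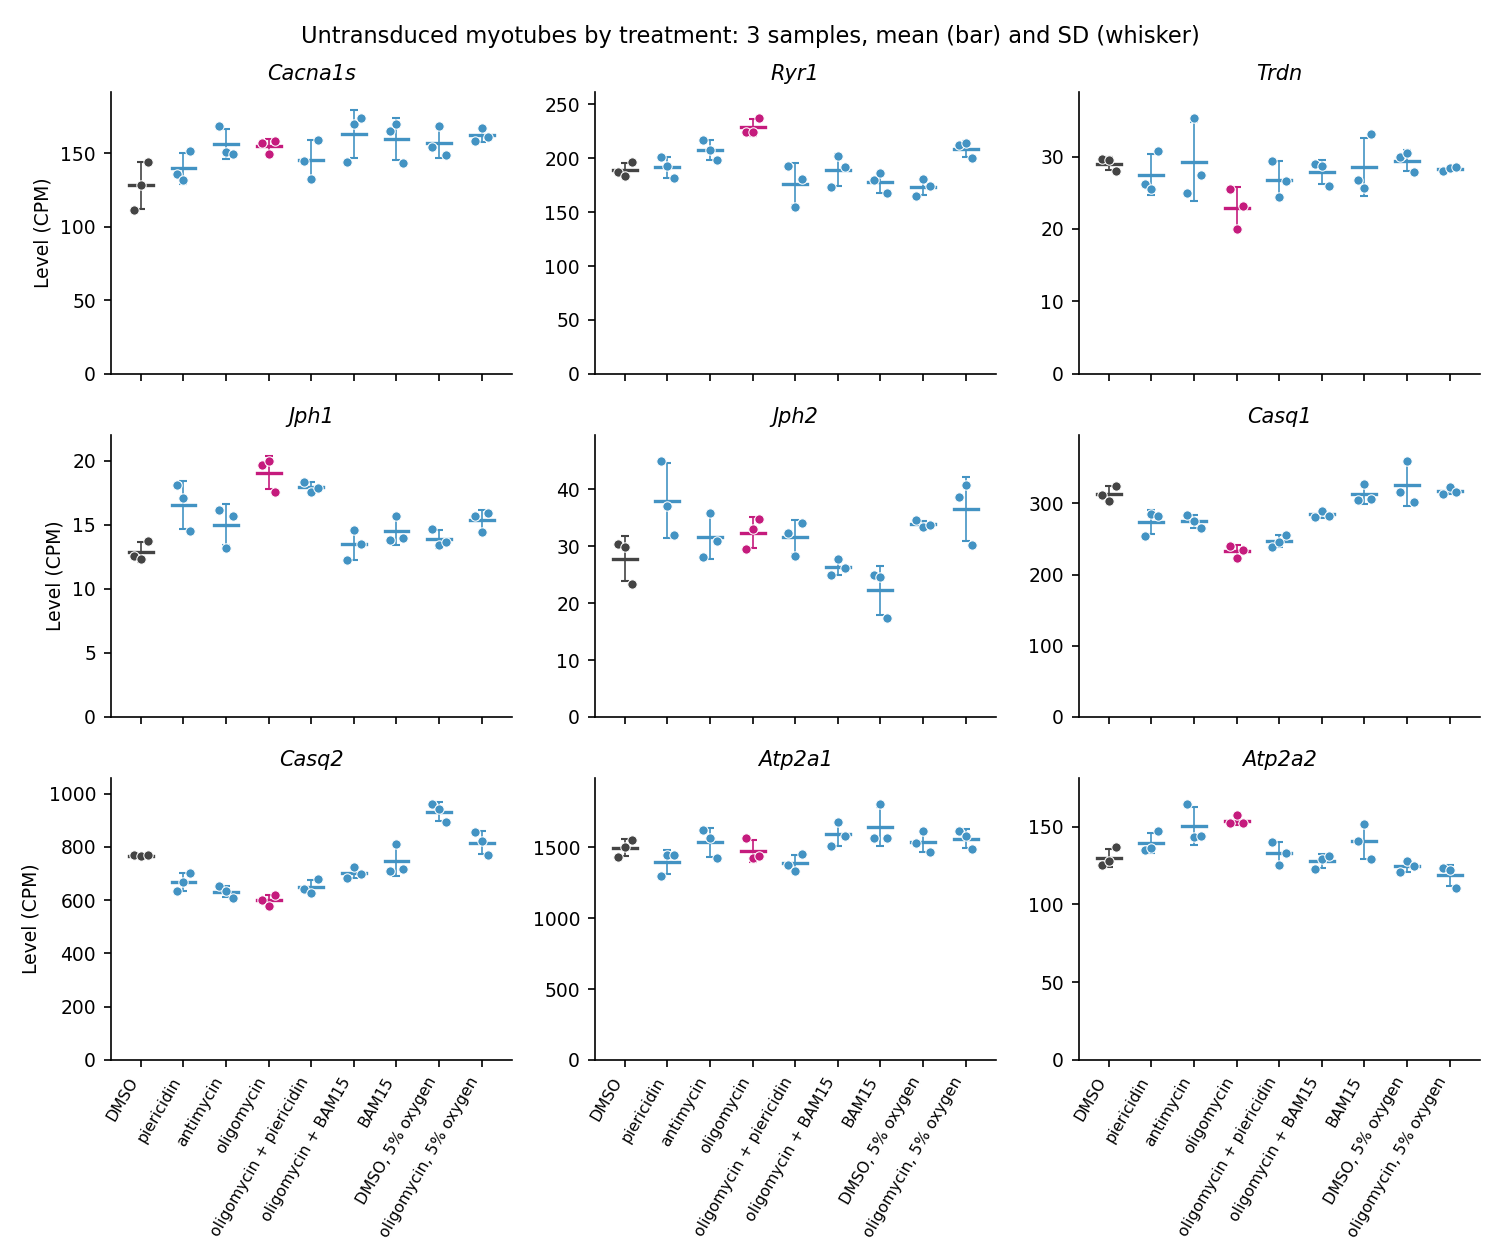
Level of the 9 tested genes in the 9 conditions of untransduced myotubes, in CPM with 1 point per sample and the mean and SD. Casq2 is highest in low oxygen with DMSO and lowest with oligomycin alone in standard oxygen.

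Oligomycin was also given together with a second condition, and each combination was compared with oligomycin alone. Adding piericidin changed 3 of 9 genes (20.9% of all genes). Ryr1 fell to 193, 154 and 181 CPM, log2 -0.38 ± 0.06 (SE, edgeR adjusted p = 8.16e-05), Atp2a2 fell to 140.2, 126 and 133 CPM, -0.21 ± 0.06 (SE, edgeR adjusted p = 0.00859), and Casq2 rose to 640.3, 628 and 679 CPM, 0.11 ± 0.04 (SE, edgeR adjusted p = 0.0336). No combination sample overlapped those with oligomycin alone for these 3 genes. The Casq2 call was lost without oligomycin replicate 1 or 2 or replicate 3 of the combination (adjusted p up to 0.145), without the count filter (0.16) and with only the groups compared (0.0618), and the Atp2a2 call without replicate 2 of either group (-0.18, adjusted p up to 0.0583). Jph1 stayed at 18.4, 17.5 and 17.9 CPM, -0.09 (adjusted p = 0.59) in edgeR.

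Adding BAM15 changed 6 of 9 genes (26.1% of all genes). These comparisons share the oligomycin samples with that of oligomycin and DMSO, so that the levels with DMSO are given beside them. Ryr1 fell to 173, 202 and 192 CPM, log2 -0.25 ± 0.06 (SE, edgeR adjusted p = 0.00454), Atp2a2 to 123, 129 and 131 CPM, -0.24 ± 0.06 (SE, edgeR adjusted p = 0.0021), and Jph1 to 12.3, 14.6 and 13.5 CPM, -0.48 ± 0.10 (SE, edgeR adjusted p = 0.00114). Casq1 rose to 282, 289.9 and 283 CPM, 0.32 ± 0.04 (SE, edgeR adjusted p = 5.78e-06), and Casq2 to 683, 723 and 699 CPM, 0.26 ± 0.04 (SE, edgeR adjusted p = 1.25e-05). None of these 5 groups overlapped oligomycin alone, and the DMSO samples stood at 184 to 196 CPM for Ryr1, 125 to 137 for Atp2a2, 12.3 to 13.7 for Jph1, 304 to 325 for Casq1 and 766 to 769 for Casq2. The sixth gene, Atp2a1 (1511, 1679 and 1579.8 CPM), rose by 0.14 ± 0.05 (SE, edgeR adjusted p = 0.0397) with overlapping groups, and its call was lost without replicate 2 or 3 of either group (0.11 to 0.13). Cacna1s, at 144, 170 and 174 CPM, gave 0.10 (adjusted p = 0.425) in edgeR. Trdn passed without oligomycin replicate 1 (0.38, adjusted p = 0.0427).

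Adding low oxygen changed 5 of 9 genes (33.3% of all genes). Casq2 rose to 855, 823 and 771 CPM, log2 0.46 ± 0.04 (SE, edgeR adjusted p = 5.67e-10), and Casq1 to 314, 323 and 316 CPM, 0.47 ± 0.04 (SE, edgeR adjusted p = 9.17e-09). Trdn rose to 27.98, 28.4 and 28.6 CPM, 0.33 ± 0.12 (SE, edgeR adjusted p = 0.039). Atp2a2 fell to 123, 122 and 111 CPM, -0.36 ± 0.06 (SE, edgeR adjusted p = 2.32e-05), and Jph1 to 15.7, 14.5 and 15.9 CPM, -0.30 ± 0.10 (SE, edgeR adjusted p = 0.0314). No sample of these 5 overlapped oligomycin alone, and the count of 5 was 3 without the count filter, by the DESeq2 Wald test and with outer wells as a covariate (outer by the sample codes, read as plate positions), Trdn and Jph1 being the calls lost. Trdn was also lost with DESeq2 size factors (adjusted p = 0.0541) and Jph1 with only the groups compared (adjusted p = 0.0953). The Trdn call was lost without any sample but oligomycin replicate 1 (adjusted p up to 0.208), and the Jph1 call without replicate 1 or 2 of either group (adjusted p up to 0.135). Set against low oxygen alone, oligomycin in low oxygen changed 2 of 9 genes (4.26% of all genes). Ryr1 rose by 0.27 ± 0.06 (SE, edgeR adjusted p = 0.0113) and Casq2 fell by 0.19 ± 0.04 (SE, edgeR adjusted p = 0.00332). The Ryr1 call was lost without replicate 1 of low oxygen with DMSO (0.24, adjusted p = 0.0745).

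Myotubes with adenovirus formed a separate set of samples with their own DMSO groups, 2 samples for GFP and 3 for GFP with LbNOX, so that their oligomycin response does not share controls with that of untransduced myotubes. In GFP myotubes oligomycin changed 6 of 9 genes (25.9% of all genes, 13.8% higher and 12.1% lower), Ryr1, Atp2a2 and Jph1 upward and Casq1, Casq2 and Trdn downward. In LbNOX myotubes it changed 7 of 9 (32% of all genes, 16.6% higher and 15.4% lower), Ryr1, Atp2a2, Jph1 and Jph2 upward and Casq1, Casq2 and Trdn downward.

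Ryr1 went from 172 and 166 to 219.8 and 220.1 CPM in GFP myotubes, log2 0.37 ± 0.07 (SE, edgeR adjusted p = 0.000712), and from 177, 187 and 178 to 256, 228 and 243 CPM in LbNOX myotubes, 0.42 ± 0.05 (SE, edgeR adjusted p = 2.46e-05). Trdn went from 51.04 and 55.2 to 46.9 and 40.9 CPM, -0.29 ± 0.10 (SE, edgeR adjusted p = 0.0463), and from 56.9, 53.7 and 57.4 to 37.5, 40.97 and 38.3 CPM, -0.53 ± 0.08 (SE, edgeR adjusted p = 0.000166). Neither gene overlapped between oligomycin and DMSO in either myotube set. The Trdn call in GFP myotubes was lost without any sample but oligomycin replicate 1 (-0.33 to -0.21), and under each of the 6 other settings of the test its adjusted p was 0.0544 to 0.16 (0.0547 with a replicate block).

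Jph1 went from 10.4 and 10.7 to 20.3 and 20.7 CPM in GFP myotubes, log2 0.95 ± 0.18 (SE, edgeR adjusted p = 0.00106), and from 11.8, 8.66 and 13.03 to 19.1, 21.1 and 18.1 CPM in LbNOX myotubes, 0.80 ± 0.14 (SE, edgeR adjusted p = 0.000593). Jph2 gave 0.41 ± 0.15 (SE, edgeR adjusted p = 0.0607) and 0.43 ± 0.12 (SE, edgeR adjusted p = 0.0145), from 19.2, 19.1 and 19.6 to 28.2, 26.6 and 23.1 CPM in the latter. In LbNOX myotubes every oligomycin sample of both junctophilin genes lay above every DMSO sample. The Jph2 call was lost without oligomycin replicate 1 (0.36, adjusted p = 0.0644).

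Casq2 went from 579 and 576 to 418 and 426 CPM in GFP myotubes, log2 -0.46 ± 0.05 (SE, edgeR adjusted p = 4.87e-06), and from 670.1, 644 and 629.8 to 489, 471 and 486 CPM in LbNOX myotubes, -0.43 ± 0.04 (SE, edgeR adjusted p = 8.7e-07). Casq1 went from 172 and 179.6 to 149 and 152 CPM, -0.24 ± 0.07 (SE, edgeR adjusted p = 0.0234), and from 198, 197 and 168 to 155, 148 and 147 CPM, -0.33 ± 0.06 (SE, edgeR adjusted p = 0.000555). All oligomycin samples were lower than the DMSO samples of their set. The Casq1 call in GFP myotubes was lost without any of its 4 samples (-0.26 to -0.20) and with only the groups compared (adjusted p = 0.0516).

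Atp2a2 went from 136 and 127 to 189 and 185 CPM in GFP myotubes, log2 0.50 ± 0.05 (SE, edgeR adjusted p = 7.13e-06), and from 128, 130.2 and 124 to 179.8, 178 and 183 CPM in LbNOX myotubes, 0.50 ± 0.04 (SE, edgeR adjusted p = 5.34e-07). Every oligomycin sample was the higher. The Atp2a1 share of the pump pair was 95.7% ± 0.121 with DMSO and 93.5% ± 0.00771 with oligomycin in GFP myotubes, and 95.6% ± 0.245 and 93.5% ± 0.359 in LbNOX myotubes. Cacna1s, which had risen in untransduced myotubes, gave 0.11 (adjusted p = 0.373) and 0.06 (adjusted p = 0.589) in edgeR, and the difference between the sets was not tested.

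Between LbNOX and GFP myotubes with DMSO the log2 differences lay between -0.07 and 0.16, 0 of 9 passed in edgeR (0.0242% of all genes, 3 genes), 1 of 9 had an unadjusted p under 0.05 and DESeq2 called 0. The response to oligomycin in LbNOX myotubes minus that in GFP myotubes lay between -0.24 and 0.05 for the 9 genes, and 0 passed (0% of all genes, with 525 at an unadjusted p under 0.05, 0 of them among the 9, and 1 gene called by DESeq2). Of the 55 other calcium genes, 7 of 50 rose and 11 fell with oligomycin in GFP myotubes (13.8% and 12.1% of all genes), with Atp2a3 (log2 4.08 ± 0.41, 27.3 against 1.61 CPM) and Cav3 (log2 -1.32 ± 0.09, 31.2 against 77.1 CPM) again among them.

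With piericidin 1 of 9 genes passed in GFP myotubes (3.09% of all genes), Atp2a2 at 154 and 157 CPM and log2 0.23 ± 0.05 (SE, edgeR adjusted p = 0.033), with adjusted p = 0.0626 under a replicate block, 0.158 without the count filter and 0.324 with only the groups compared. Jph2, at 31.3 and 23.6 CPM against 17.1 and 19.9 CPM, gave 0.56 ± 0.15 (SE, edgeR adjusted p = 0.0619) and passed without the count filter (adjusted p = 0.0286), with outer wells as a covariate (0.0222) and without piericidin replicate 2 (0.73, adjusted p = 0.0368). In LbNOX myotubes 2 of 9 passed (6.78% of all genes), Atp2a2 at 144, 152 and 154 CPM and 0.22 ± 0.04 (SE, edgeR adjusted p = 0.00676), and Jph2 at 27.6, 23.9 and 28.9 CPM and 0.46 ± 0.12 (SE, edgeR adjusted p = 0.0358), which gave adjusted p = 0.065 under the block. All of these samples lay above the DMSO samples of their set. The Atp2a2 call in GFP myotubes was lost without any sample but DMSO replicate 1 (adjusted p up to 0.257), and the Jph2 call without any sample but piericidin replicate 2 (adjusted p up to 0.111). Casq1 at 185 and 204 CPM in GFP myotubes and 204, 204 and 213 CPM in LbNOX myotubes was above its DMSO samples, with differences of 0.13 (adjusted p = 0.434) and 0.13 (adjusted p = 0.218) in edgeR.

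With DMSO alone, transduced and untransduced myotubes differed in level, as a description, since they were not fitted together and adenovirus cannot be told apart from other differences between these sets. Trdn stood at 51.04 to 57.4 CPM in the 5 transduced samples and 27.96 to 29.7 CPM in the 3 untransduced ones. Casq1 stood at 168 to 198 against 304 to 325 CPM, and Casq2 at 576 to 670 against 766 to 769 CPM. Trdn was thus higher and both calsequestrin genes lower in every transduced sample with DMSO.

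At day 1 oligomycin lowered 4 of 9 genes and raised none (20.7% of 11827 genes passed, 1255 of them higher and 1190 lower). Casq2 went from 710.1, 716 and 737 to 541, 532 and 570.4 CPM, log2 -0.39 ± 0.04 (SE, edgeR adjusted p = 5.43e-05). Casq1 went from 26.005, 23.6 and 24.3 to 21.02, 16.9 and 18.1 CPM, -0.39 ± 0.10 (SE, edgeR adjusted p = 0.0195), and Trdn from 5.78, 5.14 and 4.39 to 3.003, 2.53 and 2.68 CPM, -0.89 ± 0.21 (SE, edgeR adjusted p = 0.00994). Both calsequestrin genes and their anchor were thus lower in all 3 oligomycin samples. Cacna1s went from 63.1, 72.1 and 72.7 to 61.5, 58.5 and 53.4 CPM, -0.26 ± 0.08 (SE, edgeR adjusted p = 0.049), also without overlap, but its adjusted p was 0.0655 with a replicate block and 0.05001 with only the groups compared, and the call was lost without replicate 2 or 3 of either group (adjusted p up to 0.166). The Casq1 call was lost without DMSO replicate 1 or 3 or oligomycin replicate 2 or 3 (adjusted p up to 0.0749). Ryr1, at 92.997, 93.7 and 65.8 CPM against 69.4, 68.6 and 74.2 CPM, had 1 low sample with oligomycin (replicate 3) and gave 0.26 ± 0.12 (SE, edgeR adjusted p = 0.185), and without that sample it passed at 0.40 (adjusted p = 0.0108). Of 47 tested genes on the list of other calcium genes, 4 rose and 12 fell at day 1, where 20.7% of all genes passed.

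Piericidin lowered Casq2 at day 1, to 653, 619 and 592 CPM and log2 -0.22 ± 0.04 (SE, edgeR adjusted p = 0.0215), the only 1 of 9 genes to pass (2.75% of all genes), and the call was lost without any sample but piericidin replicate 1 (adjusted p up to 0.111). All 3 piericidin samples lay below the 3 with DMSO.

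The responses of myotubes and day 1 cells to oligomycin differed for 1 of 9 genes (3.57% of all genes). Cacna1s rose in untransduced myotubes and fell at day 1, and the difference of the responses was log2 0.53 ± 0.14 (SE, edgeR adjusted p = 0.0257). For the other 8 genes the adjusted p of the difference was 0.13 or more, but Atp2a2 passed by the DESeq2 Wald test (0.36, adjusted p = 0.0286) and without replicate 2 of day 1 DMSO (0.42, adjusted p = 0.0485). With outer wells of the plate as a covariate the Cacna1s difference was 0.50 with an edgeR adjusted p of 0.0723, and all day 1 samples carried outer-well codes.

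In control myoblasts only Atp2a2, Jph1 and Jph2 were testable, and all 3 responded to antimycin (63.2% of all genes passed, 32.1% higher). Jph1 went from 2.85, 2.40 and 3.38 to 9.34, 8.12 and 11.6 CPM, log2 1.79 ± 0.25 (SE, edgeR adjusted p = 2.46e-07), and Jph2 from 9.38, 6.06 and 7.68 to 32.4, 25.1 and 30.1 CPM, 1.97 ± 0.20 (SE, edgeR adjusted p = 1.11e-09). Both junctophilin genes reached several times their DMSO level, and Jph2 the level of DMSO myotubes (30.3, 29.8 and 23.3 CPM). Atp2a2 went from 38.6, 36.7 and 29.3 to 45.2, 42.6 and 41.9 CPM, 0.34 ± 0.07 (SE, edgeR adjusted p = 0.000196). None of the 3 overlapped between groups. The Atp2a2 change rests on the scaling: the log2 ratio of mean levels was 0.31 with TMM, 0.31 with DESeq2 size factors and 0.05 with plain library totals, which shift the ratio of these groups by 0.26.

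With piericidin 2 of 3 passed (61.7% of all genes), Atp2a2 at 46.7, 51.8 and 53.2 CPM and log2 0.57 ± 0.07 (SE, edgeR adjusted p = 8.34e-08), and Jph1 at 4.31, 5.75 and 5.40 CPM and 0.88 ± 0.25 (SE, edgeR adjusted p = 0.00312). The log2 ratio of mean Atp2a2 levels was 0.53 with TMM and 0.34 with plain library totals. Jph2 at 9.62, 10.96 and 10.4 CPM gave 0.47 ± 0.21 (SE, edgeR adjusted p = 0.0555), and passed by the DESeq2 Wald test (adjusted p = 0.0499) and without the samples numbered 1 (0.65, adjusted p = 0.0384). All 3 genes lay above their DMSO samples. Without the samples numbered 2 the Jph1 change was 0.63 (adjusted p = 0.0808). With oligomycin 1 of 3 passed (50.8% of all genes), Atp2a2 at 50.1, 50.4 and 48.3 CPM and 0.52 ± 0.07 (SE, edgeR adjusted p = 5.77e-07), while Jph1 gave 0.40 (adjusted p = 0.201) and Jph2 0.20 (adjusted p = 0.469) in edgeR. Among the 42 tested genes on the list of other calcium genes, 12 rose and 12 fell with piericidin, 14 rose and 9 fell with antimycin, and 10 rose and 10 fell with oligomycin, where 61.7%, 63.2% and 50.8% of all genes passed. Atp2a3 rose in all 3 (for antimycin log2 2.09 ± 0.34, 4.92 against 1.19 CPM), and Bin1, a T-tubule shaping protein, rose with antimycin (log2 1.64 ± 0.43, 133 against 43.5 CPM).

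**Figure D5:**
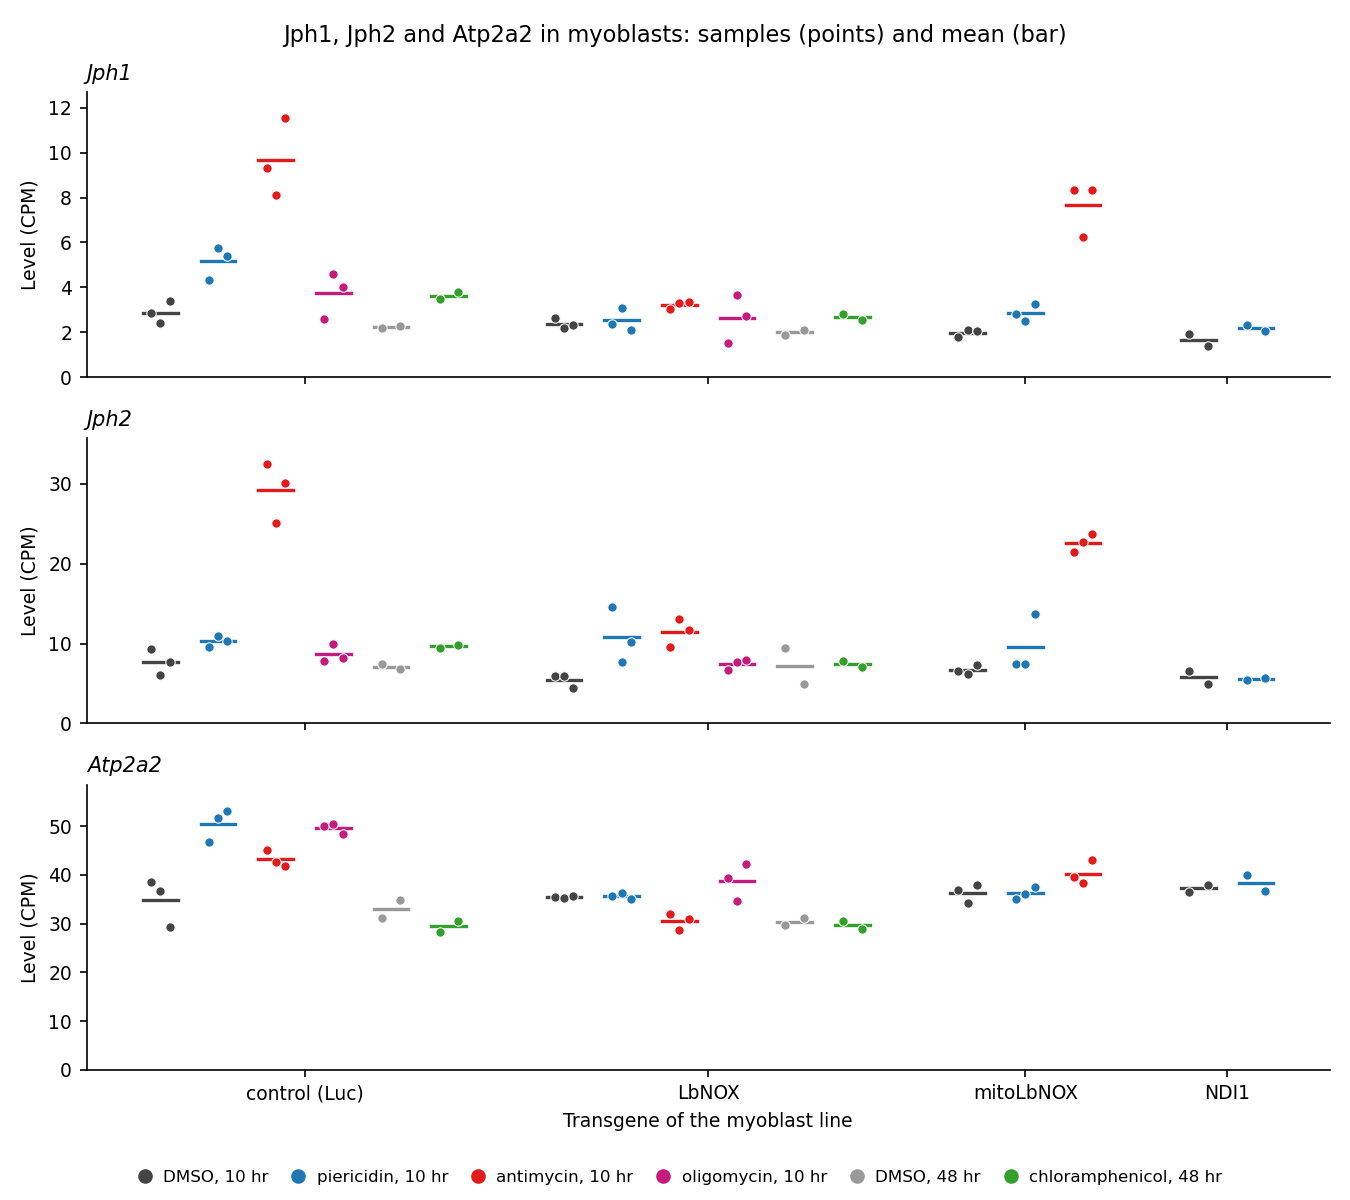
Level of Atp2a2, Jph1 and Jph2 in the 17 myoblast conditions, in CPM with 1 point per sample, for lines with luciferase, LbNOX, mitoLbNOX or NDI1. Jph1 and Jph2 stand out with antimycin in the luciferase and mitoLbNOX lines, and Jph2 is 25.1 to 32.4 CPM there in the luciferase line.

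In the LbNOX line antimycin moved 1 of 3 genes (46.1% of all genes), Jph2 from 5.88, 5.99 and 4.46 to 9.61, 13.1 and 11.7 CPM, log2 1.12 ± 0.22 (SE, edgeR adjusted p = 8.46e-05). Jph1, at 3.03, 3.30 and 3.35 CPM against 2.64, 2.19 and 2.33 CPM, gave 0.49 ± 0.26 (SE, edgeR adjusted p = 0.129), and Atp2a2, at 32.03, 28.8 and 30.95 CPM against 35.5, 35.2 and 35.7 CPM, gave -0.16 ± 0.08 (SE, edgeR adjusted p = 0.0892). Jph1 lay above and Atp2a2 below its DMSO samples. The difference of the antimycin response between the LbNOX and control lines was itself tested and passed for 3 of 3 genes, all lower with LbNOX (51.5% of all genes), with Atp2a2 at -0.50 ± 0.11 (SE, edgeR adjusted p = 0.000207), Jph1 at -1.30 ± 0.36 (SE, edgeR adjusted p = 0.0032) and Jph2 at -0.85 ± 0.30 (SE, edgeR adjusted p = 0.0169). Taken from mean levels the Atp2a2 difference was -0.52 with TMM and -0.33 with plain library totals. The Jph2 difference no longer passed, at -0.78, without the samples numbered 1 (adjusted p = 0.0833) or those numbered 2 (adjusted p = 0.0839).

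With piericidin in the LbNOX line 1 of 3 passed (8.87% of all genes), Jph2 at 14.6, 7.75 and 10.2 CPM and log2 1.00 ± 0.22 (SE, edgeR adjusted p = 0.00216), a call that rests on the samples numbered 1 and was 0.79 (adjusted p = 0.108) without them, with adjusted p = 0.0523 with only the groups compared. Atp2a2 stood at 35.6, 36.4 and 35.1 CPM, 0.01 (adjusted p = 0.942) in edgeR, and its response was lower than in the control line by 0.56 ± 0.11 (SE, edgeR adjusted p = 6.06e-05), the 1 of 3 genes whose difference passed (44.3% of all genes). Without the samples numbered 2 the Jph2 difference passed too, at 1.01 (adjusted p = 0.0372). Oligomycin moved 0 of 3 in edgeR (35.2% of all genes), with 2 of 3 at an unadjusted p under 0.05 and 0 called by DESeq2, and Atp2a2 at 39.3, 34.7 and 42.2 CPM.

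In the mitoLbNOX line antimycin moved 2 of 3 genes (47.7% of all genes), Jph1 from 1.78, 2.08 and 2.08 to 8.35, 6.24 and 8.36 CPM, log2 1.97 ± 0.26 (SE, edgeR adjusted p = 1.62e-07), and Jph2 from 6.52, 6.25 and 7.27 to 21.4, 22.7 and 23.7 CPM, 1.78 ± 0.21 (SE, edgeR adjusted p = 2.07e-08). These groups did not overlap. Piericidin moved 0 of 3 in the mitoLbNOX line in edgeR (11.2% of all genes), with 1 of 3 at an unadjusted p under 0.05 and 0 called by DESeq2. In the NDI1 line, with 2 samples per group, piericidin moved 0 of 3 in edgeR (0.00835% of all genes, 1 gene), with 0 of 3 at an unadjusted p under 0.05 and 0 called by DESeq2. There Atp2a2 was 36.6 and 37.9 CPM with DMSO and 39.996 and 36.6 CPM with piericidin. Chloramphenicol for 48 hr moved 0 of 3 in the control line (8.45% of all genes) and 0 of 3 in the LbNOX line (0.931%), with 1 and 0 at an unadjusted p under 0.05 and 0 called by DESeq2. Jph1 was 3.47 and 3.80 CPM with chloramphenicol and 2.20 and 2.28 CPM with DMSO in the control line, 0.74 ± 0.30 (SE, edgeR adjusted p = 0.176).

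Responses in myotubes and control myoblasts were also compared with each other, which says little of the 6 genes near 0 in myoblasts, whose response there could not be measured. For oligomycin 0 of 9 differences passed in edgeR (29% of all genes), with 2 of 9 at an unadjusted p under 0.05 and 0 called by DESeq2. Of the 3 genes testable within myoblasts, Atp2a2 gave -0.24 ± 0.11 (SE, edgeR adjusted p = 0.106), and passed without replicate 1 of the myoblast DMSO group (-0.32, adjusted p = 0.0458). For piericidin 2 of 9 passed (46.5% of all genes), of which Atp2a2 was the 1 testable within myoblasts. The Atp2a2 response in myotubes minus that in control myoblasts was -0.41 ± 0.11 (SE, edgeR adjusted p = 0.00349). Taken from mean levels this difference was -0.43 with TMM and -0.24 with plain library totals. The Ryr1 value, 2.76 ± 1.06 (SE, edgeR adjusted p = 0.0338), rests on 0 to 9 myoblast counts per sample and is not read as a difference in response. The call was lost without replicate 2 of the myoblast DMSO group (1.1, adjusted p = 0.561), without replicate 2 or 3 of the piericidin group (2.30 and 2.27), and without the count filter (2.74, adjusted p = 0.0539).

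Over the 15 myotube conditions the 9 genes kept within a 1.29-fold (Atp2a1) to 2.48-fold (Trdn) range of condition means. Casq2 was highest in low oxygen with DMSO (933 ± 35.9 CPM, SD, n = 3) and lowest with oligomycin in GFP myotubes (422 ± 6.19 CPM, SD, n = 2). Casq1 was also highest in low oxygen (326 ± 30.1 CPM, SD, n = 3) and was lowest with oligomycin in LbNOX myotubes (149.9 ± 4.48 CPM, SD, n = 3). Atp2a2 had its highest level with oligomycin in GFP myotubes (187 ± 2.43 CPM, SD, n = 2) and its lowest with oligomycin in low oxygen (119 ± 6.82 CPM, SD, n = 3), and Ryr1 its highest with oligomycin in LbNOX myotubes (242 ± 13.96 CPM, SD, n = 3). Most neighbouring conditions did not differ beyond their spread. Of 14 pairs of neighbours in the order, 5 were apart by more than both SDs for Casq2, 4 for Casq1, 2 each for Ryr1, Atp2a2 and Trdn, and 0 for Atp2a1, Cacna1s, Jph1 and Jph2. In the 17 myoblast conditions Jph1 ranged 5.78-fold, from 1.67 ± 0.377 CPM, SD, n = 2 in the NDI1 line with DMSO to 9.67 ± 1.74 CPM, SD, n = 3 in the control line with antimycin. Jph2 ranged 5.37-fold between the LbNOX line with DMSO (5.45 ± 0.852 CPM, SD, n = 3) and the control line with antimycin (29.2 ± 3.72 CPM, SD, n = 3).

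The genes whose log2 levels followed the mean of the 10 most closely over all 35 conditions were Fabp3, a muscle fatty acid carrier (Pearson r = 0.994), Padi2 (0.993), Txlnb (0.992), Cap2 (0.992) and Cd36, a fatty acid transporter (0.991), out of 8321 genes compared. These conditions share the split between myoblasts and differentiated cells. Over the 15 myotube conditions alone the closest were Zcchc6 (0.847), Tbc1d19 (0.836), Rtraf (0.807), Eef1b2 (0.800) and Rpl10 (0.797), of 8182 compared. The myotube conditions hold untransduced and transduced sets, between which Trdn, Casq1 and Casq2 differed in level. The part of this split in the correlations was not tested, and Sln, near 0, entered the means with equal weight. The 10 genes did not move as a unit there: the correlation of a gene with the mean of the others ran from -0.539 for Trdn to 0.144 for Jph2 over the 15 myotube conditions, against 0.489 for Sln and 0.853 (Jph2) to 0.984 (Casq1) for the others over all 35. These are descriptions over condition means that share libraries and control groups.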

How the data were processed

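C2C12 samples were prepared with Smart-seq2 chemistry, which does not mark strand, and sequenced on an Illumina NextSeq instrument (bcl2fastq 2.20.0.422). The authors quantified transcripts with kallisto 0.44 with bias correction against Ensembl mouse transcripts (GRCm38.p6) plus the transgenes, summed them to genes with tximport and deposited estimated counts, here rounded whole numbers, 1 column per sample. Samples took their groups from the GEO labels. Genes with 16 counts or more in every replicate of 1 condition of a fit were tested with edgeR 4.0.16 (R 4.3.3; TMM, quasi-likelihood F test, Benjamini-Hochberg adjustment, threshold 0.05), in 6 fits and 36 comparisons. Counts were also simulated, with a dispersion set at 0.02, for oligomycin in untransduced myotubes and for piericidin and chloramphenicol in control myoblasts. The test recovered 125, 113 and 98 of 200 changed genes, with 6, 10 and 6 false calls. A standard error is the log2 change divided by the root of F. Estimated counts divide shared reads between genes, and intervals of count ratios cover counting error only. The alternatives were DESeq2 1.42.0 size factors and its Wald test, no count filter, a replicate block, an outer-well covariate (sample codes read as plate positions), only the groups compared, and leaving out samples; plain library totals for levels. All 10 genes were named, and of the list of 55 up to 5 per direction by the size of their change among those passing. The 10 genes and the lists were chosen with earlier results of these data known. Calr and Cd68 were named after their values were seen. Of 87 replicate pairs, 0 held identical counts.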

Additional observations from a re-analysis of the deposited data

Results flagged for a closer look

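The responses of Cacna1s, Atp2a2, Jph1 and Jph2 differed between groups by a test of the difference itself (edgeR, adjusted over all genes, in the log2 unit), and the part of other differences between these groups was not tested. The Cacna1s response to oligomycin was higher in untransduced myotubes than in day 1 cells by 0.53 (adjusted p = 0.0257), with a rise in myotubes and a fall at day 1 (3.57% of all genes passed). With outer wells as a covariate it was 0.50 (adjusted p = 0.0723).

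Against control myoblasts, the response to piericidin in myotubes differed by -0.41 for Atp2a2 (adjusted p = 0.00349; 46.5% of all genes passed), and from mean levels by -0.43 with TMM and -0.24 with plain library totals. The Ryr1 value of 2.76 (adjusted p = 0.0338) rests on 0 to 9 myoblast counts per sample and is not read as a difference, since without replicate 2 of the myoblast DMSO group it was 1.1 (adjusted p = 0.561) and without the count filter 2.74 (adjusted p = 0.0539).

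Against control myoblasts, the LbNOX line had a different Atp2a2 response to piericidin, by -0.56 (adjusted p = 6.06e-05; 44.3% of all genes passed). With antimycin the LbNOX line differed by -0.50 for Atp2a2 (adjusted p = 0.000207), -1.30 for Jph1 (adjusted p = 0.0032) and -0.85 for Jph2 (adjusted p = 0.0169), where 51.5% of all genes passed. From mean levels the Atp2a2 difference with antimycin was -0.52 with TMM and -0.33 with plain library totals, and with piericidin -0.53 and -0.40. The Jph2 value was -0.78 without the samples numbered 1 (adjusted p = 0.0833) or those numbered 2 (adjusted p = 0.0839).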

How the results depend on the processing

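No change that passed the test turned its direction under any alternative, and of the 246 values of single genes the DESeq2 Wald test ended 4 calls and made 2, DESeq2 size factors ended 2, leaving out the count filter ended 10 and made 1, fitting only the groups compared ended 10 and made 1, and the replicate block ended 4. The outer-well covariate ended 5 of 228 and made 2; it could not be fitted at day 1, where all samples carried outer-well codes. Leaving out of samples apart, the numbers of the 9 (or 3) genes passing moved by more than 1.5 times in the comparisons given next, and by 1.5 times or less in others, among them oligomycin in GFP myotubes, where only the groups compared gave 4 in place of 6. For the response to oligomycin in myotubes minus that in day 1 cells (1 gene) the DESeq2 Wald test gave 2 and the outer-well covariate 0. For piericidin in myotubes minus that in control myoblasts (2) no count filter gave 1. For piericidin in untransduced myotubes (4) no count filter and only the groups compared each gave 2. For oligomycin in low oxygen against oligomycin alone (5) no count filter, the DESeq2 Wald test and the outer-well covariate each gave 3. For piericidin in GFP myotubes (1) the outer-well covariate gave 2 and only the groups compared gave 0. For piericidin in LbNOX myoblasts (1) only the groups compared gave 0. Samples with the same replicate number had a mean correlation of deviations of -0.041 to 0.054 in the 6 fits. Those with other numbers had -0.027 to 0.036, and such means cannot exclude that samples were paired. The replicate block gave 0 for piericidin in GFP myotubes and 1 for piericidin in LbNOX myotubes (2). The block also ended the Trdn call with oligomycin in GFP myotubes (adjusted p = 0.0547) and the Cacna1s call with oligomycin at day 1 (adjusted p = 0.0655), and changed no other call.

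Leaving out 1 sample, or in myoblasts all samples of 1 number, gave 1 to 2 genes for the oligomycin response of myotubes minus day 1 cells, 0 to 2 for that of myotubes minus control myoblasts (0 with all samples), and 1 to 3 for the piericidin response of myotubes minus control myoblasts. In untransduced myotubes it gave 1 to 4 for piericidin, 2 to 4 for antimycin (4 with all samples), 1 to 3 for BAM15 (3), 1 to 3 for oligomycin plus piericidin against oligomycin (3), 3 to 4 for oligomycin in low oxygen against oligomycin and 1 to 2 for oligomycin within low oxygen (2). It gave 0 to 1 for piericidin in GFP myotubes, 1 to 2 for piericidin in LbNOX myotubes, 0 to 1 for piericidin (1) and 2 to 4 for oligomycin (4) at day 1, 1 to 3 for piericidin in control myoblasts (2), 0 to 1 for piericidin in LbNOX myoblasts and 1 to 2 for its difference between these lines (1). With plain library totals in place of TMM, the day 1 DMSO levels were 75.4 CPM for Ryr1, 651 for Atp2a1, 65.5 for Atp2a2, 26.2 for Casq1 and 768 for Casq2, and the myotube DMSO level of Casq2 was 755. The 6 genes near 0 in myoblasts had too few counts to be tested there. Plain library totals for the differences of responses, and leaving out myoblast samples for count ratios, were chosen after seeing the data; no difference that passed turned its direction with plain totals. Why these values moved was not tested.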
